A study of Mus musculus with 6 samples.

Results

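Voltage-gated calcium and sodium channel genes and potassium channel genes were examined in D4M-3A cells, a mouse melanoma line with mutant Braf, in the presence or absence of IκBζ, which is encoded by Nfkbiz. The members were taken by gene symbol alone: Cacna, Cacnb and Cacng genes, Kcn genes with letters and a closing number, and Scn genes whose number is followed by a or b. This gave 132 of the 43043 genes listed. RNA was sequenced from 3 control samples (Ctrl), which had received the empty CRISPR-Cas9 construct by lentivirus, and from 3 samples transduced with a Nfkbiz CRISPR-Cas9 construct (Nfkbiz KO). Cells of both groups were untreated otherwise, were selected with puromycin and were grown in RPMI-1640 medium with FCS. Whether the knockout cells are a pool or a clone is not stated, and the replicates are described as independent experiments.

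Ion channels let selected ions cross the membrane. Voltage-gated channels have a pore subunit that opens when the membrane depolarises, and auxiliary subunits that set how much of the channel reaches the surface and how fast it opens and closes. Calcium channels admit calcium as a messenger, sodium channels carry the fast depolarising current of neurons and muscle, and potassium channels bring the membrane back towards rest. Among potassium channels, calcium- or sodium-activated channels respond to ions inside the cell, whereas inward rectifiers and two-pore channels keep up the resting potential. In cells that are not excitable, including melanoma cells, such channels set the membrane potential, cell volume and calcium entry.

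Between 32219900 and 44927203 reads per sample were counted on genes, so a count of 0 in a sample allows up to 0.0668 to 0.0931 CPM (counts scaled to library size; 3 counts of the total, counting error only). The targeted gene Nfkbiz had 69.1, 75.2 and 63.4 TPM (a level scaled to gene length and library size) in Ctrl and 34.8, 34.7 and 35.1 TPM in the Nfkbiz KO samples. Its RNA was lower in each Nfkbiz KO sample than in any Ctrl sample (log2 fold change -0.98 ± 0.056 SE; p = 0.1 in a two-sided exact permutation test, which cannot give less with 3 samples against 3). Of 10 melanocyte lineage markers only Mitf, Pmel and S100b had enough reads to be tested, and the list summed to 1.31 to 1.80 TPM in the Ctrl samples and 1.27 to 1.98 TPM in the Nfkbiz KO samples, with Sox10, Mlana, Tyr and Kit among the genes at 0 TPM in every sample. The 6 fibroblast markers summed to 966 to 1070 TPM in the Ctrl samples and 799 to 843 TPM in the Nfkbiz KO samples, most of it from collagen genes. Of the 5 fibroblast markers tested 4 fell, and no melanocyte marker passed. Markers of muscle, endothelium and leukocytes each summed, list by list, to at most 4.17 TPM in any sample, and of these Cdh5 (endothelium) and Ttn (muscle) rose. The part of these lists in the channel results was not tested.

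Of the 132 channel genes, 41 had at least 10 reads in 3 or more samples and were tested. The other 91 were too low, 29 of them without a read in any sample and none with more than 16 reads in one sample. Most tested channel genes were weakly expressed. Their median level was 0.776 TPM, against 14.5 TPM over all 14533 genes tested, with 22 of the 41 below 1 TPM and 5 above 10 TPM. Kcnn4, the calcium-activated potassium channel of intermediate conductance, had the highest level and contributed 36.3% of the summed TPM of all channel genes. It was followed by Cacnb3, Kcnk2 and Cacng7. Cacng7 (16.3 TPM on average over all 6 samples) and Kcnk2 (18.6 TPM) were close, and their ranges overlapped in Ctrl but not in Nfkbiz KO.

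Channel genes changed in both directions in Nfkbiz KO cells. At an adjusted p of 0.05 or less, 13 of the 41 tested genes rose and 11 fell (quasi-likelihood test of edgeR, adjusted after Benjamini and Hochberg over the 14533 genes). Over all genes tested 36.3% passed, 18% higher and 18.2% lower. Among the channel genes, 8 of the higher and 7 of the lower ones changed more than 2-fold, where 5.88% of all genes tested passed, 2.54% higher and 3.34% lower. With a difference of group means above 4 TPM added, as in the thresholds of the study, Cacna1a alone was called, where 1.78% of all genes passed, 0.75% higher and 1.03% lower. The study does not give the unit of that difference, which was taken as TPM. Of the 24 genes past the adjusted p, 12 had a mean level below 1 TPM, as had 10 of the 15 that also changed more than 2-fold. For 3 of the 41 genes, Kcnf1 and Kcnh5 among them, one group had no sample with 10 reads, so that they entered the test through the other group alone. These genes are included in the counts above, and their calls are not independent of that filter. The median log2 fold change was 0.14 for the tested channel genes and -0.02 for all genes tested. The median size of the change, regardless of direction, was 0.67 and 0.20, respectively. The channel genes and all genes were not matched for level. Whether the larger value goes with the low level of the channel genes was not tested. In all 24 genes past the adjusted p the groups did not overlap in CPM, as in 26 of the 41 tested and in 48.2% of all genes tested.

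**Figure D1:**
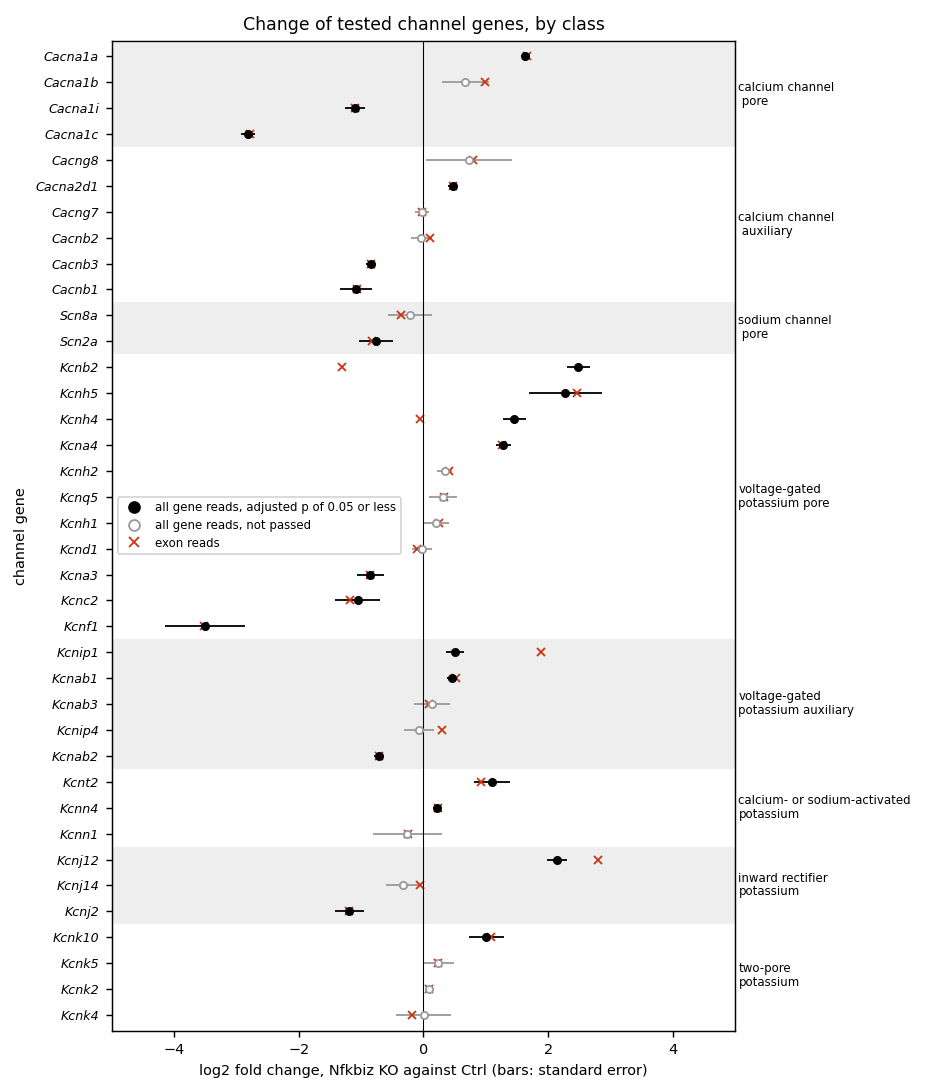
Log2 fold change of 38 of the 41 tested channel genes in Nfkbiz KO against Ctrl (x axis) by functional class (y axis). Circles are the estimates from all reads counted on the gene with their standard error as bars, filled black where the adjusted p was 0.05 or less and open grey where it was not, and red crosses are the estimates from exon reads alone. Circle and cross nearly coincide for Cacna1c at -2.81 and Cacna1a at 1.63, whereas Kcnb2, Kcnh4 and Kcnip1 have circles and crosses far apart.

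The reads on a gene include reads in introns, and their share differed between channel genes. Exon reads could be recovered as whole numbers from the deposited RPKM values for 99.9% of the genes tested, and for all 41 channel genes. For 22 of the 41 a single exon length gave whole reads in all samples. For the others the length nearest to the current annotation was taken. Their exon read counts, exon shares and fits on exon reads are therefore estimates. The median channel gene had 76.2% of its reads in exons, against 92.7% for all genes tested. In 8 of the 41, fewer than 50% of the reads lay in exons, as in 9.56% of all genes. On exon reads 20 channel genes passed the adjusted p, 11 higher and 9 lower, where 35.4% of all genes passed (17.7% in each direction). Of these, 19 had also passed on all reads in the same direction. Each comparison below is therefore given with its exon value where it changes the call.

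Before the values, a window upstream of a transcription start is shown for each of 3 genes. These are Cacna1c, with the largest decrease of a calcium channel, Cacna1i, which also fell, and Kcnn4, with the highest level. The windows were searched on both strands for the κB consensus and for TTCNNNGAA, the core of STAT sites. The κB consensus is the site of the NF-κB dimers with which IκBζ associates. All 3 windows shown hold a match, unlike most windows of the genes past the adjusted p. Each window shown is the 250 bases before a RefSeq start on GRCm38.p6, 5′ to 3′ on the strand of the gene, with matches in capitals. Matches begin 115 bases before the start in Cacna1c (TTCNNNGAA), 112 (κB) and 16 (TTCNNNGAA) bases before it in Cacna1i, and 33 bases before it in Kcnn4 (κB), and no matches shown overlap.
Cacna1c, chr6:118757975-118758224, minus strand: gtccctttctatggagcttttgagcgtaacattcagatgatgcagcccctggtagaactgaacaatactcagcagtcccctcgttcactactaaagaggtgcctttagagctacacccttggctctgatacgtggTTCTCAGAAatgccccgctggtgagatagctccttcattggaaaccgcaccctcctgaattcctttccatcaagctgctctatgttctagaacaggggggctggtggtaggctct
Cacna1i, chr15:80286988-80287237, plus strand: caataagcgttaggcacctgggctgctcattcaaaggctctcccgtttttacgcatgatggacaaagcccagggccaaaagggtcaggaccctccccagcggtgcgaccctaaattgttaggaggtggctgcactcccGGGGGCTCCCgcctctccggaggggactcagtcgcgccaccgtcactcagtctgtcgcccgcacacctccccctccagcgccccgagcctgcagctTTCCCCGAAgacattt
Kcnn4, chr7:24370013-24370262, plus strand: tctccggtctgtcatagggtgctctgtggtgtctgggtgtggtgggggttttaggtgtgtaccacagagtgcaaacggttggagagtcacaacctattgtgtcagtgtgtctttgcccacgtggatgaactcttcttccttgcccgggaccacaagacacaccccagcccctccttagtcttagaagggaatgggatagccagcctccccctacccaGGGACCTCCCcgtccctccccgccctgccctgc

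RefSeq windows were matched for 33 of the 41 tested channel genes, 56 windows in all, since a gene can have several starts. Cacna1c has 3 windows, and the match lies in the most downstream of them, the one shown. The windows further upstream hold no match to either motif. The κB consensus was found in 3 of the 35 windows of genes past the adjusted p (8.57%) and in 8.83% of the windows of all genes tested. TTCNNNGAA was found in 5 of the 35 windows (14.3%) and in 5.92% of the windows of all genes tested. These matches describe the letters in the windows only.

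The pore subunits of calcium channels changed in opposite directions. Of 10 members 4 were tested, of which 1 rose and 2 fell. Cacna1c, the pore of the L-type channel that carries calcium current in heart and smooth muscle (chromosome 6 of GRCm39, 118564201 to 119173851), had 4.05, 4.38 and 3.24 TPM in the Ctrl samples and 0.651, 0.601 and 0.561 TPM in the Nfkbiz KO samples. All 3 Nfkbiz KO samples lay far below the lowest Ctrl sample. The change was -2.81 ± 0.11 SE on the log2 scale (edgeR adjusted p = 3.3e-09), and it stayed between -2.93 and -2.73 with any 1 sample left out. The decrease was present in exon reads (2881 and 429 in Ctrl and Nfkbiz KO, summed over 3 samples) and in reads elsewhere in the gene (1765 and 252). The gene overlaps Dcp1b on the opposite strand, and the mapping counted both strands. Its difference of means, -3.29 TPM, is under the limit of 4 TPM.

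Cacna1a, the pore of the P/Q-type channel that triggers transmitter release at synapses (chromosome 8, 85065224 to 85367997), had 2.91, 3.06 and 2.58 TPM in the Ctrl samples. In Nfkbiz KO it had 10.3, 10.3 and 8.49 TPM, so that the groups were well apart. The change was 1.63 ± 0.074 SE on the log2 scale (edgeR adjusted p = 7e-09). It is the one channel gene in the supplementary gene list of the study, which was drawn from these samples, so that its change is not independent evidence. In Ctrl, Cacna1c thus exceeded Cacna1a in each sample on the TPM scale, and in Nfkbiz KO Cacna1a exceeded Cacna1c in each sample.

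Cacna1i, the pore of a T-type channel that opens at low voltage, had 2.40, 1.91 and 1.53 TPM in the Ctrl samples and 0.936, 1.07 and 0.915 TPM in the Nfkbiz KO samples. The change was -1.09 ± 0.16 SE on the log2 scale (edgeR adjusted p = 0.00016). Cacna1b, the N-type pore, was low, with 10 to 15 reads per Ctrl sample and 11 to 28 per Nfkbiz KO sample, and did not pass (adjusted p = 0.19, edgeR). The other 6 pore genes had too few reads to be tested.

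The auxiliary calcium channel subunits included more abundant genes than the pores, and 1 of the 6 tested rose and 2 fell. Cacnb3, a cytoplasmic β subunit that helps pores to reach the membrane, had 43.7, 41.3 and 38.4 TPM in the Ctrl samples and 26.7, 23.4 and 23.6 TPM in the Nfkbiz KO samples. This is the largest difference in TPM among the lower channel genes, although its log2 fold change was -0.85 ± 0.067 SE (edgeR adjusted p = 8.7e-07). Cacnb1, another β subunit, was much lower, with 1.09, 0.900 and 0.752 TPM in the Ctrl samples and 0.540, 0.477 and 0.385 TPM in the Nfkbiz KO samples (log2 fold change -1.09). Cacna2d1, the α2δ subunit that binds gabapentin, rose from 6.51, 8.54 and 6.97 TPM to 11.0, 10.9 and 10.9 TPM (log2 fold change 0.47 ± 0.073 SE). The 3 Nfkbiz KO samples were almost identical, whereas the Ctrl samples were spread more widely. Cacng7, a γ subunit that also binds glutamate receptors, had 14.5 to 17.4 TPM in the Ctrl samples and 14.7 to 18.7 TPM in the Nfkbiz KO samples, so that the groups overlapped (log2 fold change -0.02 ± 0.11 SE). Cacnb2 and Cacng8 did not pass either.

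**Figure D2:**
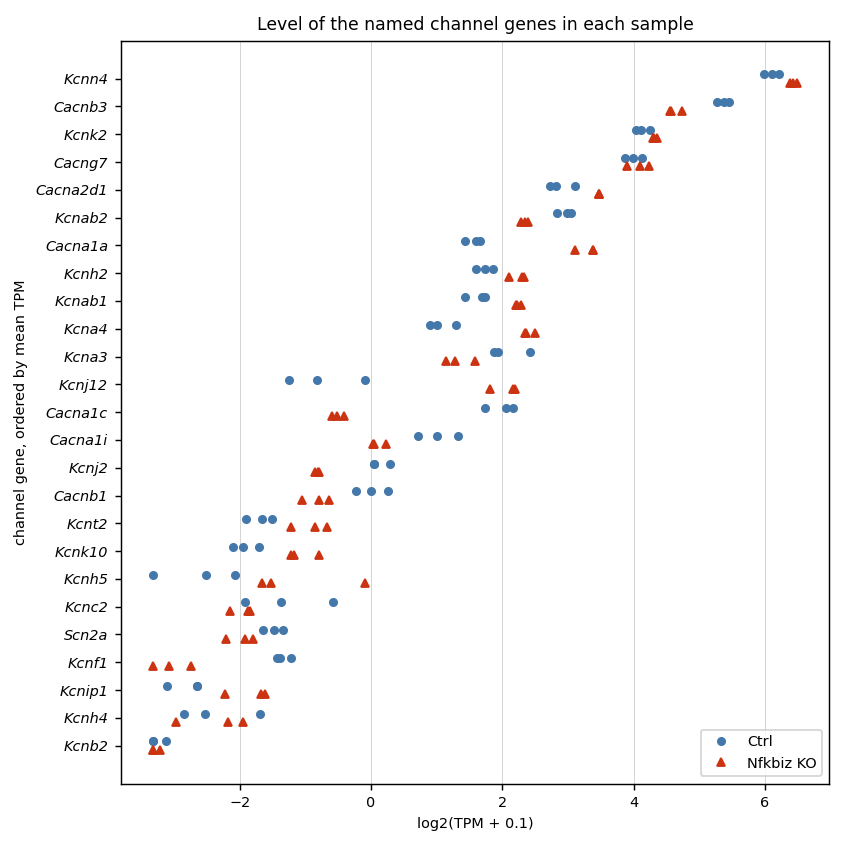
Level of 25 channel genes in each sample, as log2(TPM + 0.1) on the x axis, ordered by mean TPM on the y axis. Blue circles are the 3 Ctrl samples and red triangles the 3 Nfkbiz KO samples, and values at the left edge are 0 TPM. Cacna1c and Kcnj12 stand at similar mean levels, Cacna1c with Ctrl above Nfkbiz KO and Kcnj12 with the groups the other way round.

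Sodium channel pores were expressed at very low levels. Scn2a, a pore of neurons, had 40, 48 and 54 reads in the Ctrl samples and 27, 34 and 23 in the Nfkbiz KO samples (log2 fold change -0.77, edgeR adjusted p = 0.046). It was close to the threshold and was lost with any 1 of the 6 samples left out, with adjusted p up to 0.18 (edgeR, without Nfkbiz KO replicate 3). With the replicate number as a block its adjusted p was 0.058 (edgeR), on exon reads it was 0.054, and with DESeq2 it was 0.069. Scn8a, another pore of neurons, did not pass (log2 fold change -0.22, edgeR adjusted p = 0.67).

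On exon reads the largest increase was that of an inward rectifier gene. Of 15 inward rectifier genes 3 were tested, and 1 rose and 1 fell. Kcnj12 and Kcnj2 encode closely related rectifiers of heart and muscle that carry most of the strong inward rectifier current. Kcnj12 (chromosome 11, 60912944 to 60964099) had 0.318, 0.842 and 0.468 TPM in the Ctrl samples and 4.49, 4.35 and 3.43 TPM in the Nfkbiz KO samples. Its log2 fold change was 2.14 from all reads (SE 0.16, edgeR adjusted p = 6.1e-07) and 2.80 from exon reads (SE 0.28). Exon reads went from 51 to 363 and reads elsewhere in the gene from 117 to 393, summed over 3 samples, with exons as the authors' annotation defines them. Kcnj2, 1.12, 0.935 and 0.931 TPM in the Ctrl samples, was lower in all Nfkbiz KO samples with 0.470, 0.479 and 0.451 TPM (log2 fold change -1.19 ± 0.24 SE, edgeR adjusted p = 0.0019). All of its reads lay in exons. On the TPM scale, Kcnj2 was thus above Kcnj12 in each Ctrl sample and below it in each Nfkbiz KO sample. Kcnj14 did not pass.

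Of the 40 pore genes of voltage-gated potassium channels 12 were tested, and 4 rose and 3 fell. Kcna4, a rapidly inactivating A-type channel (chromosome 2, 107117626 to 107128847), had 1.91, 2.36 and 1.77 TPM in the Ctrl samples and 5.52, 5.01 and 4.96 TPM in the Nfkbiz KO samples. The change was 1.28 ± 0.13 SE on the log2 scale (edgeR adjusted p = 7.2e-06), with 98.7% of the reads in exons. Kcna3, a channel best known from T cells, moved the other way, from 3.73, 5.26 and 3.54 TPM to 2.11, 2.88 and 2.33 TPM (log2 fold change -0.86, adjusted p = 0.0084, edgeR). Kcna3 overlaps Gm27008 on the opposite strand. For both genes the Ctrl and Nfkbiz KO samples were apart.

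Kcnf1, a silent subunit that modifies other potassium channels, had 14, 17 and 17 reads in the Ctrl samples and 0, 1 and 3 reads in the Nfkbiz KO samples. The Ctrl samples had 12.1 times as many reads at equal depth (95% exact interval from 4.43 to 46.2, counting error only; adjusted p = 0.00098, edgeR). Kcnf1 entered the test through the Ctrl samples alone, where it was higher, so that these values are not independent of the filter. Its mean levels were 0.294 and 0.0228 TPM. Kcnc2, a fast channel of firing neurons, had 23, 67 and 43 reads in the Ctrl samples and 18, 19 and 28 in the Nfkbiz KO samples (log2 fold change -1.06, adjusted p = 0.038, edgeR). It was not called without Ctrl replicate 2 (log2 fold change -0.61, adjusted p = 0.2, edgeR), without any 1 of the Nfkbiz KO replicates (adjusted p from 0.067 to 0.11), on exon reads (adjusted p = 0.063) or with limma on log2(TPM + 1) (adjusted p = 0.23). Kcnh5, of the ether-à-go-go family, had 3, 6 and 4 reads in the Ctrl samples and 10, 40 and 16 in the Nfkbiz KO samples (log2 fold change 2.27, edgeR adjusted p = 0.0090). In the same way it entered the test through the Nfkbiz KO samples alone, where it was higher. Without Nfkbiz KO replicate 2 its log2 fold change was 1.53, with an adjusted p of 0.062 (edgeR), and with limma on log2(TPM + 1) the adjusted p was 0.14. Kcnh2, the pore of the rapid delayed rectifier of the heart, had 3.53, 2.92 and 3.23 TPM in the Ctrl samples and 4.80, 4.92 and 4.18 TPM in the Nfkbiz KO samples. It narrowly missed the threshold on all reads (log2 fold change 0.34, adjusted p = 0.055, edgeR) and passed on exon reads (0.41, adjusted p = 0.02). Kcnq5, Kcnh1 and Kcnd1 did not pass.

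For Kcnb2 and Kcnh4 the increase lay outside the exons. Kcnb2, a delayed rectifier of neurons (chromosome 1, 15356816 to 15793974), had 23, 29 and 34 reads in the Ctrl samples and 126, 175 and 192 reads in the Nfkbiz KO samples. This gives a log2 fold change of 2.48 ± 0.18 SE (edgeR adjusted p = 4.8e-07), the largest increase among the tested channel genes. Only 0.691% of these reads were in exons, and its level was at most 0.0150 TPM in any sample. Kcnh4, of the same family as Kcnh2 (chromosome 11, 100631202 to 100650837), went from 48, 63 and 51 reads to 109, 174 and 176 reads (log2 fold change 1.46 ± 0.18 SE), with 4.51% in exons. Its TPM values, 0.0383 to 0.211 in Ctrl and 0.0281 to 0.159 in the Nfkbiz KO samples, overlapped. On exon reads the log2 fold change of Kcnh4 was -0.06 (adjusted p = 0.97, edgeR), and Kcnb2 had too few exon reads to show a change in either direction (adjusted p = 0.63). For Kcnb2 202 exon lengths and for Kcnh4 59 gave whole reads in all samples, so their exon shares and fits on exon reads are estimates. Neither gene overlaps another tested gene in the annotation used here. No change of the exon reads was therefore detectable for either gene.

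**Figure D3:**
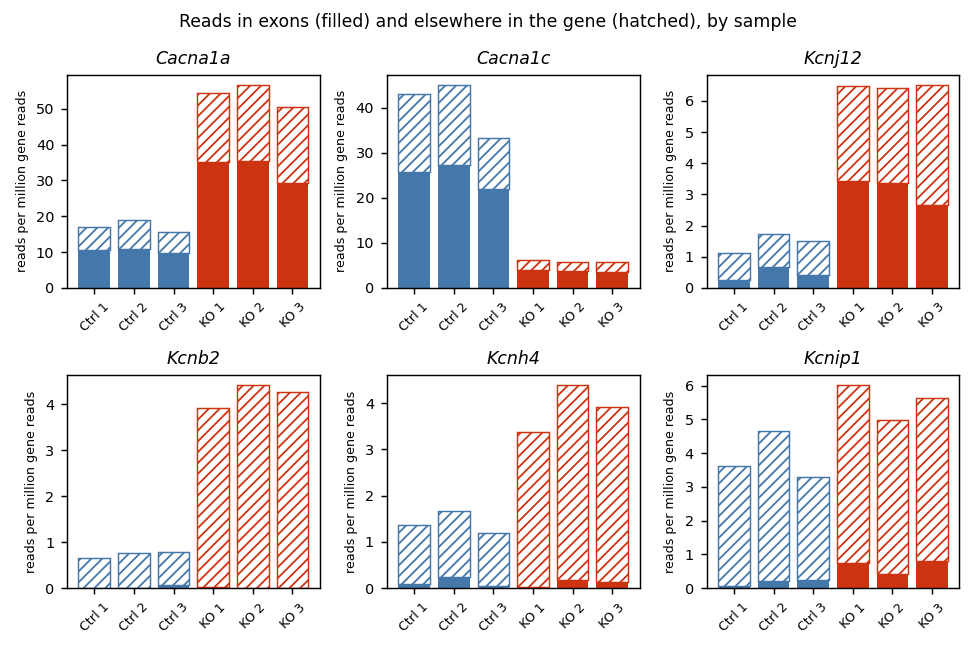
Reads scaled to the gene reads of the sample (CPM, y axes, different in each panel) in each of the 6 samples for 6 channel genes, split into exon reads (filled) and reads elsewhere in the gene (hatched), with Ctrl in blue and Nfkbiz KO (KO) in red. In Cacna1a, Cacna1c and Kcnj12 both parts moved together, in Kcnb2 and Kcnh4 the difference is in the hatched part, and in Kcnip1 the filled part is small in each sample.

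Auxiliary subunits of voltage-gated potassium channels also changed in both directions, with 2 of 5 tested higher and 1 lower. Kcnab2, a β subunit of the aldo-keto reductase fold, had 7.82, 8.11 and 7.0 TPM in the Ctrl samples and 4.99, 5.14 and 4.76 TPM in the Nfkbiz KO samples (log2 fold change -0.72 ± 0.076 SE, edgeR adjusted p = 1.2e-05). It overlaps Chd5 and Nphp4 on the opposite strand. Its relative Kcnab1 rose from 3.13, 3.24 and 2.60 TPM to 4.79, 4.55 and 4.50 TPM (log2 fold change 0.45 ± 0.079 SE, edgeR adjusted p = 0.00071), with 86% of its reads mapped uniquely. Kcnab3 and Kcnip4, the latter with 36.1% of its reads mapped uniquely, did not pass. Kcnip1, a calcium-binding partner of A-type channels, had a log2 fold change of 0.50 from all reads (adjusted p = 0.019, edgeR), of which only 8.82% lay in exons. On exon reads its log2 fold change was 1.88 (adjusted p = 0.011, edgeR). For Kcnip1 42 exon lengths gave whole reads in all samples, so this share and the adjusted p on exon reads are estimates. On all reads its adjusted p was 0.053 without Ctrl replicate 1, 0.056 without Ctrl replicate 3, 0.076 without Nfkbiz KO replicate 1 and 0.063 without Nfkbiz KO replicate 3 (edgeR). Its levels were 0.0154 to 0.0600 TPM in the Ctrl samples and 0.114 to 0.226 TPM in the Nfkbiz KO samples. Kcna3, Scn2a and Kcnip1 are given here because they complete the genes past the adjusted p, and were added after their values were seen.

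Of the calcium- or sodium-activated potassium channels 3 of 12 were tested, and 2 rose. Kcnn4 (chromosome 7, 24066915 to 24086115), which couples calcium signals to hyperpolarisation in cells that are not excitable, had 73.9, 63.3 and 68.5 TPM in the Ctrl samples and 86.2, 89.7 and 82.9 TPM in the Nfkbiz KO samples. The samples did not overlap, but the change was small (log2 fold change 0.22 ± 0.072 SE, edgeR adjusted p = 0.028). It was past the threshold by little, with adjusted p of 0.054 without Ctrl replicate 2, and of 0.072, 0.13 and 0.052 without Nfkbiz KO replicates 1, 2 and 3 (edgeR). Kcnt2, a sodium-activated channel, had 16, 29 and 24 reads in the Ctrl samples and 50, 47 and 52 in the Nfkbiz KO samples (log2 fold change 1.09, adjusted p = 0.0099, edgeR), and an adjusted p of 0.055 on exon reads. Kcnn1 had 4 to 15 reads per sample in each group and did not pass (adjusted p = 0.76, edgeR).

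Among 14 two-pore channel genes 4 were tested and 1 rose. Kcnk2, a leak channel opened by stretch, was among the highest of all channel genes, with 16.3, 18.9 and 17.1 TPM in the Ctrl samples and 19.7, 19.6 and 20.3 TPM in the Nfkbiz KO samples. Its change was not significant on read counts (log2 fold change 0.09 ± 0.058 SE, edgeR adjusted p = 0.23). Kcnk10, its close relative, had 18, 20 and 30 reads in the Ctrl samples and 38, 43 and 59 in the Nfkbiz KO samples (log2 fold change 1.01 ± 0.27 SE, edgeR adjusted p = 0.012). Without Nfkbiz KO replicate 3 the adjusted p of Kcnk10 was 0.055. Kcnk5 and Kcnk4 did not pass.

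Proteins that bind or regulate these channels were followed as a list of 33 genes, of which 18 were tested, 4 rose and 3 fell (median log2 fold change 0.04). The share that passed is close to that of all genes tested, of which 36.3% passed, 18% higher and 18.2% lower. The increases above a fold change of 2, where 2.54% of all genes tested passed as higher, were those of Fgf14, Nalcn and Rem1. Fgf14, an intracellular partner of sodium channels, had 0.302, 0.199 and 0.217 TPM in the Ctrl samples and 1.17, 0.882 and 1.12 TPM in the Nfkbiz KO samples (log2 fold change 1.87, adjusted p = 1.4e-05, edgeR). Nalcn, the sodium leak channel, is itself a channel rather than a partner, although it was on this list. It went from 0.343, 0.220 and 0.226 to 0.741, 0.990 and 0.764 TPM (log2 fold change 1.59). Rem1, a small GTPase that inhibits calcium channels by way of their β subunits, went from 0.451, 0.816 and 1.12 to 3.20, 2.84 and 2.24 TPM (log2 fold change 1.36). The groups did not overlap for any of the 3.

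Of 67 genes of other cation channel families 32 were tested, of which 9 rose and 3 fell (median log2 fold change 0.12). Both directions together, the share that passed is close to that of all genes tested (36.3%, 18% higher and 18.2% lower). Past a fold change of 2 as well, 5.88% of all genes tested passed. P2rx3, an ATP-gated channel of sensory neurons, was the only one past a fold change of 2, with 3.03, 2.82 and 1.55 TPM in the Ctrl samples and 10.6, 10.0 and 9.57 TPM in the Nfkbiz KO samples (log2 fold change 2.01 ± 0.15 SE).

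Many of these channels are best known from neurons, so a list of 11 neuronal markers was measured beside them. Of the 6 tested, 4 rose and 1 fell, where 36.3% of all genes tested passed, 18% higher and 18.2% lower. The list summed to 81.7 to 88.1 TPM in the Ctrl samples and 135 to 145 TPM in the Nfkbiz KO samples. Tubb3, a tubulin (75.4 and 108 TPM on average), and the neurofilament gene Nefl (2.61 and 22.1 TPM) made up most of that. Nefl, Nefm, Stmn2 and Tubb3 were the genes that rose, with log2 fold changes of 3.0, 2.53, 2.88 and 0.42, and Map2 fell (-0.51). Syp did not pass, and Rbfox3, Snap25, Syt1, Elavl3 and Elavl4, which include RNA-binding and synaptic proteins of neurons, had at most 0.0988 TPM in any sample. The part of the neuronal list in the channel results was not tested.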

How the data were processed

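RNA of D4M-3A cells (3 Ctrl, 3 Nfkbiz KO) was analysed from 1 deposited gene table per sample. The authors mapped to GRCm39 in CLC Genomics Workbench, per the paper's methods. The submitters' processing notes name GRCm38, but 97.1% of the Ensembl identifiers in the tables are in GENCODE vM39, which gave the coordinates. The deposited counts are total and uniquely mapped gene reads, without normalization, introns included. The deposited TPM and RPKM are from exon reads. Reads from both strands were counted, so that a gene and an antisense partner cannot be told apart.

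Genes with at least 10 total reads in 3 or more samples were tested with edgeR 4.0.16 (R 4.3.3; TMM, quasi-likelihood) with Benjamini-Hochberg adjustment over all 14533 genes. The standard error is the log2 fold change divided by the square root of F. Samples did not overlap when all log2 CPM values of one group lay above those of the other. Exon reads were taken as RPKM times depth times the exon length at which all 6 samples gave whole numbers (within 0.01), a step chosen after seeing the data. Named genes were those past the adjusted p and a fold change of 2, the 10 of highest TPM, any in the study's list, and for the related lists up to 5 in each direction. Members and lists were chosen with earlier results of these data known. The procedure was tested on simulated data. Alternatives were DESeq2 1.42.0, limma 3.58.1 on log2(TPM + 1) and log2(TPM + 0.1), RLE factors, filterByExpr, no filter, unique reads, a replicate block and each sample left out. Within groups, no pair of samples agreed within sampling noise. Chi-square divided by its degrees of freedom was 27.8 to 70.9 for Ctrl pairs and 3.49 to 6.20 for Nfkbiz KO pairs. The Ctrl samples thus differed more among themselves. Some measured genes are not reported here.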

Additional observations from a re-analysis of the deposited data

How the results depend on the processing

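The count of channel genes past the adjusted p, 24, was 21 to 25 under the other tests, scales, filters and reads planned, 20 on exon reads, and 19 to 23 with 1 sample left out. In all 6 of the latter fits 17 of the 24 remained. The count past a fold change of 2, 15, lay between 11 and 15 with 1 sample left out. It fell to 4 with limma on log2(TPM + 1) and to 6 with limma on log2(TPM + 0.1). These 2 scales add a pseudocount and also rest on exon reads alone. The part of each in the lower counts was not tested. The median log2 fold change of the tested channel genes, 0.14, was 0.085 and 0.19 on these 2 scales, and 0.032 to 0.17 with 1 sample left out. Among the channel genes that were followed through every alternative, signs turned for Kcnb2, Kcnh4 and Cacng7. Cacnb2, Kcnip4 and Kcnk4, which did not pass and were compared on exon reads alone, also had the other sign there. Kcnb2 had -0.0036 and -0.033 with limma on log2(TPM + 1) and log2(TPM + 0.1), and -1.30 on exon reads. Kcnh4 had -0.0053, -0.0099 and -0.062, in the same order, since few of the reads of both genes lie in exons. Cacng7, which passed in no fit, had 0.076 and 0.080 on the 2 TPM scales, and ranged from -0.089 (without Nfkbiz KO replicate 2) to 0.086 (without Ctrl replicate 3) with 1 sample left out, being 0.072 without Nfkbiz KO replicate 1. Replicate numbers did not pair the samples (correlations of deviations across genes of 0.051, -0.020 and 0.028). With the replicate number as a block 23 channel genes passed, all among the 24, and Scn2a alone was lost. The Nfkbiz log2 fold change was -1.01 to -0.93 with 1 sample left out. The channel genes under the filter, with at most 16 reads in any sample, were not tested.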

Other observations

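Among the channel genes with too few reads to be tested, the most reads were on Kcnk7, a two-pore family member, with 21 reads summed over Ctrl and 23 over Nfkbiz KO. Kcnip2, a partner of A-type channels, had 21 reads in each group. Scn1a, a sodium channel pore of inhibitory neurons, had 9, 7 and 7 reads in the Ctrl samples and 0, 0 and 2 in the Nfkbiz KO samples, and Kcnmb4, a β subunit of the large-conductance calcium-activated channel, had 10, 3 and 15 reads in the Ctrl samples and 7, 1 and 0 in the Nfkbiz KO samples. Kcnma1, the pore that Kcnmb4 accompanies, had 7 reads in Ctrl and 14 in Nfkbiz KO. These genes were picked out after their values were seen, and no test was made of them.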
